A study of Mus musculus with 4 samples.

Results

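Foxl2 and Gata2 encode transcription factors found in gonadotropes, pituitary cells that secrete follicle-stimulating hormone and luteinizing hormone. FOXL2 is a forkhead factor that works with SMAD proteins at Fshb, which encodes the β chain of follicle-stimulating hormone, and it is also known for its role in ovarian granulosa cells. GATA2 is a zinc-finger factor of gonadotropes, thyrotropes and blood stem cells. Activin is a TGFβ family ligand whose receptors act through SMAD2 and SMAD3, and it raises Fshb transcription in gonadotropes. Open chromatin at the genes of such factors marks promoters and distal elements that regulatory proteins can reach.

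Accessibility was measured by ATAC-seq in LbT2b cells (cell line LbT2), an established mouse gonadotrope line, in a study of Fshb transcription and its enhancers. There were 2 libraries of cells given vehicle and 2 of cells given activin A at 1 nM, both for 6 h after a night in serum-free medium, and 50000 cells went into each tube. No genetic change is given in the labels, and every library came from this 1 cell line. The labels do not say whether libraries of a group came from separate cultures, so the p-values measure only the spread between these libraries, which may be technical.

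The members were all peaks in the authors' lists that are annotated to Foxl2 or Gata2, together with all peaks within 100 kb of either start site. This gave 106 of 417506 peaks, with 25 in vehicle library 1, 36 in vehicle library 2, 22 in activin library 1 and 23 in activin library 2. Of these, 51 lay around Foxl2, 10 of them annotated to Foxl2 itself, and 55 lay around Gata2, 22 of them annotated to Gata2. All the annotated peaks lay inside the windows. Merging peaks that overlapped by at least 1 bp gave 29 regions at Foxl2 and 24 at Gata2, which is 53 of 255101 regions in all.

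Between 172146474 and 224226184 high-quality autosomal reads were obtained per library. Genome-wide read enrichment at transcription start sites reached 2.72 and 2.48 for the 2 vehicle samples, and 3.12 and 3.04 for the 2 activin samples. The lists held 12377 and 12760 strong peaks under vehicle and 19819 and 15807 under activin, where strong means a −log10 q of at least 5. The q-value is the false discovery rate that the authors' peak caller gave a peak. Promoter peaks, centred within 1 kb of a start site, were present in all 4 libraries for 5 of 6 gonadotrope markers, for 0 of 5 markers of lactotropes, somatotropes and thyrotropes, and for 0 of 3 blood markers. The gonadotrope marker without one was Fshb, with a promoter peak in 0 libraries. Some markers of other cell types had promoter peaks in all 4 libraries: 1 of 4 of corticotropes and melanotropes, 1 of 3 of folliculostellate or stem cells, 2 of 3 of endothelium and 1 of 3 of granulosa cells. None of the 3 fibroblast markers did. For comparison, 53.1% of 17491 protein-coding genes with a RefSeq start had a promoter peak in all 4 libraries, and 30.0% in none. Some markers had no such start and were looked up by the authors' nearest-gene label alone.

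Foxl2 (ENSMUSG00000050397) is transcribed from the forward strand of chromosome 9, with its start site at 98955607 and its end at 98958126 in GRCm38. The annotated span of the long noncoding RNA gene Foxl2os lies upstream, and its near edge is 297 bp from that start. Gata2 (ENSMUSG00000015053) is transcribed from the forward strand of chromosome 6, from 88193891 to 88207032, and has alternative first exons. RefSeq places a further start at 88198664, 4773 bp downstream of the first, and these are called the upstream and the downstream start here. The 250 bases before each start are printed because each stretch lay whole inside a called peak in every library. They come from the RefSeq promoter table of GRCm38.p6, on the strand of the gene, from chr9:98955357-98955606 for Foxl2, chr6:88193641-88193890 for the upstream Gata2 start and chr6:88198414-88198663 for the downstream one. Capitals mark matches, on either strand, to a SMAD motif with the letters CAGAC, to the GC box, whose letters are GGGCGG, or to the CCAAT box.
Foxl2 promoter: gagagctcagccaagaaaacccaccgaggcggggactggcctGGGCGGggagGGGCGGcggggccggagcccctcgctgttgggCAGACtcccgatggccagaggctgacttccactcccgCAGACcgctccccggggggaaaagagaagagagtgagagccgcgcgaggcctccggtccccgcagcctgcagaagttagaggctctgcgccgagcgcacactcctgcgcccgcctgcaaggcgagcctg
Gata2 upstream promoter: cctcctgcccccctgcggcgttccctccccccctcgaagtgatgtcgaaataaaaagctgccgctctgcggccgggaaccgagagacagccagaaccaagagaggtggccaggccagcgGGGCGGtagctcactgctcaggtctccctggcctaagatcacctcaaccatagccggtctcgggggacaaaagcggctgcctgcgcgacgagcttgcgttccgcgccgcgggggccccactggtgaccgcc
Gata2 downstream promoter: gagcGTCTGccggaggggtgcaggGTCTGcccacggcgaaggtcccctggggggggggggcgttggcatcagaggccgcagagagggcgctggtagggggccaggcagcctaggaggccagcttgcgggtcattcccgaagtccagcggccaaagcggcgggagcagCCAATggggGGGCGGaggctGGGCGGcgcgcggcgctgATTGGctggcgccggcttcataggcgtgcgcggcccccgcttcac

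These stretches are rich in G and C. GC content was 70.8% before the Foxl2 start, 67.2% before the upstream Gata2 start and 74.0% before the downstream one, against a median of 52.4% over 32841 RefSeq promoters. They held 22, 22 and 24 CpG dinucleotides, against a median of 6. The Foxl2 stretch held CAGAC 2 times, 166 and 129 bases before the start, and GGGCGG 2 times, 208 and 198 bases before it. The upstream Gata2 stretch held 1 GGGCGG, 131 bases before the start, and neither CAGAC nor CCAAT. The downstream Gata2 stretch held GGGCGG 2 times, and CAGAC 2 times on the other strand, read there as GTCTG. It also held CCAAT 83 bases before the start and its reverse, ATTGG, 45 bases before it. Such matches are common: of all RefSeq promoter stretches of this length, 42.2% held the SMAD motif, 32.7% the GC box and 33.9% the CCAAT box on either strand. The GATA motif was searched as GATAA, which 22.6% of promoters hold on either strand. The forkhead motif was searched in the form GTAAACA, held by 3.17%, and in the form GTAAATA, held by 2.73%. The TATA box was searched as TATAAA, held by 12.4%. None of these letters was found on either strand of the printed stretches. All these shares are over promoters of any GC content and were not matched to the higher GC of the printed stretches.

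The Foxl2 window held 1 promoter peak and few strong distal ones in each library. The Gata2 window held peaks at both starts, strong peaks 32.9 and 38.0 kb downstream, and other peaks called in all 4 libraries as far as 69.9 kb upstream. In the plots of both windows each called peak is placed by its distance from the start.

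**Figure D1:**
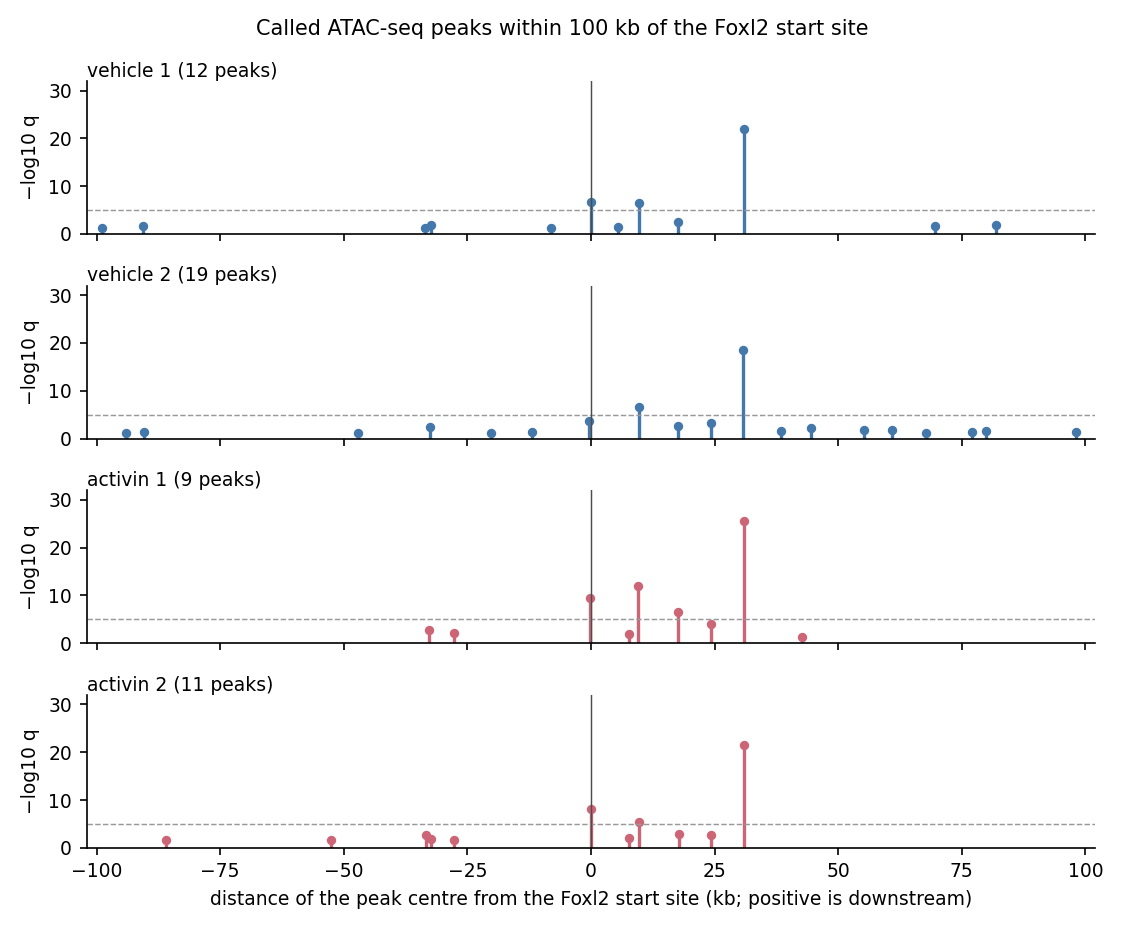
Called peaks within 100 kb of the Foxl2 start in the 4 libraries; the horizontal axis is the distance of the peak centre from the start in kb, the height is the authors' −log10 q, the vertical line is the start and the dashed line is a −log10 q of 5. The tallest peak in each library stood 31.0 kb downstream, at the Faim promoter, and vehicle library 2 had 19 peaks, mostly low, against 9 to 12 in the others.

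**Figure D2:**
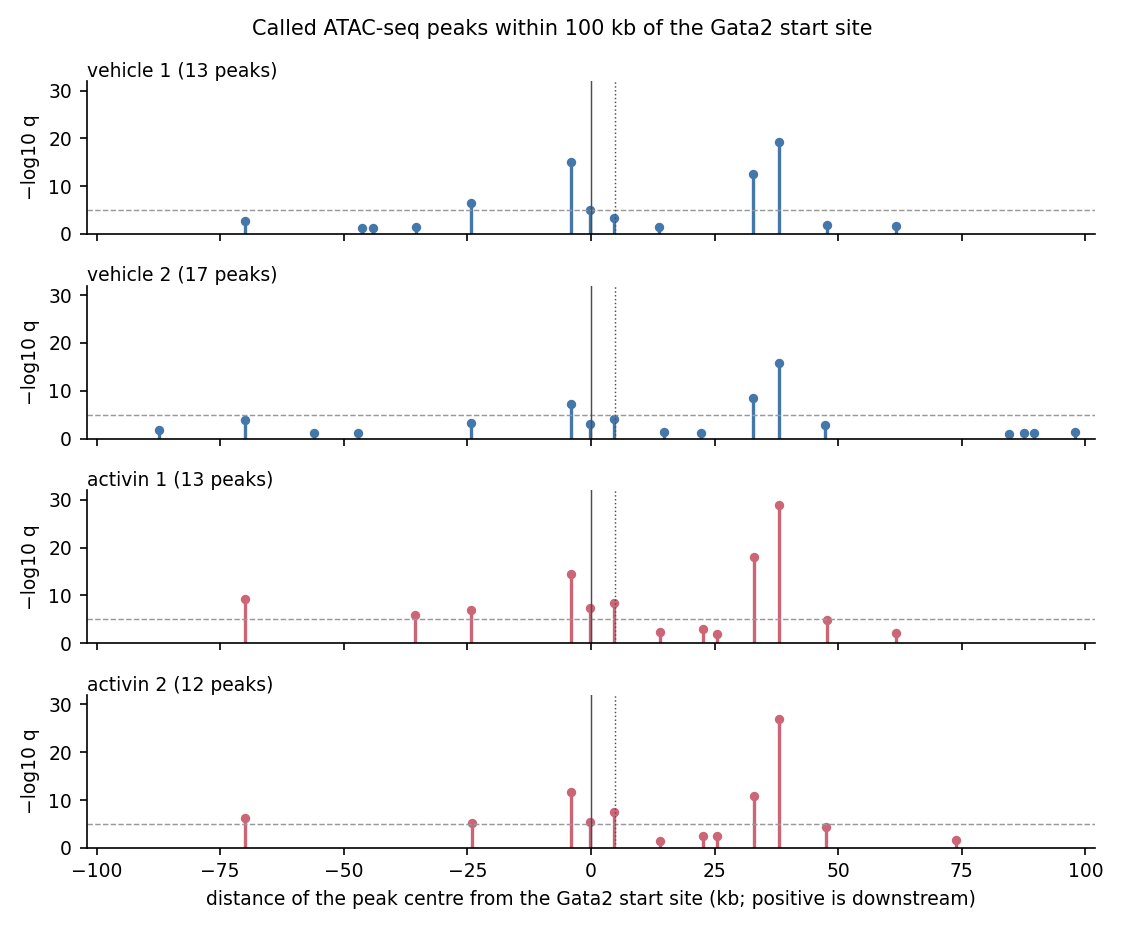
Called peaks within 100 kb of the upstream Gata2 start, drawn in the same way; the dotted line is the downstream start. The tallest peak in each library stood 38.0 kb downstream, and 8 and 7 peaks of the activin libraries reached a −log10 q of 5 against 4 and 3 of the vehicle libraries. In the whole lists, 19819 and 15807 peaks of the activin libraries reached it against 12377 and 12760 of the vehicle libraries.

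The first comparison asked how open the Foxl2 promoter was and whether that differed after activin. Its region, chr9:98954392-98956296, had 1 peak in each library and also covers the near edge of the Foxl2os span. The authors' annotation gave this peak to Foxl2 in 3 libraries and to Foxl2os in vehicle library 2. The −log10 q was 6.75 in vehicle library 1, 3.59 in vehicle library 2, 9.50 in activin library 1 and 8.20 in activin library 2. Both activin values were above both vehicle values. Fold enrichment over the peak caller's background, which was 3.05, 2.40, 2.98 and 3.13 in the same order, overlapped between the groups. Read density, in high-quality reads per kb of peak per 1000000 high-quality reads of the library, was 2.22 and 1.87 under vehicle and 2.84 and 2.55 under activin. The groups did not overlap, with means of 2.04 ± 0.248 and 2.70 ± 0.204 (SD, n = 2 libraries, exact permutation p = 0.333, the smallest that 2 against 2 libraries allow, 2-sided).

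Both activin densities exceeded both vehicle densities in 62.4% of the 13871 regions shared by the 4 libraries, and were below both in 3.56%, so the Foxl2 promoter ran the same way as most shared regions. A shared region has 1 peak in each library, and the peaks have at least 50% of their joint extent in common. Scaling to all high-quality reads raised the median shared region by 0.27 (log2, activin against vehicle). The main test therefore centred each library on its median shared region. On that scale the Foxl2 promoter differed by 0.13 ± 0.12 (log2, SE; limma adjusted p = 0.749). Without division by peak length the difference was -0.05. In bulk libraries, more cells with an open site and a more open site in each cell cannot be told apart.

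The Foxl2 promoter stood high among all peaks of a list and near the middle of its promoter peaks. It ranked in the top 11.6%, 9.77%, 14.4% and 15.1% of all peaks by −log10 q in vehicle libraries 1 and 2 and activin libraries 1 and 2. Among promoter peaks of the same list it stood in the top 54.0%, 54.0%, 59.8% and 59.0%. Averaged over the libraries, its density of 2.37 was above that of 37.9% of the shared regions, whose median was 2.80.

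Downstream of Foxl2 the peaks called in all 4 libraries were 9.74, 17.7 and 31.0 kb from the start. The intergenic region 9.74 kb downstream (chr9:98964893-98965809), annotated to Foxl2, had a mean density of 2.46, near the 2.37 of the promoter. Its −log10 q was 6.37 and 6.55 under vehicle and 12.0 and 5.38 under activin, and its density was 2.90 and 2.06 against 2.65 and 2.21. The activin −log10 q values fell on both sides of the vehicle values, and the activin densities lay between the vehicle densities. The log2 difference was -0.29 ± 0.15 (SE; limma adjusted p = 0.557).

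The region 31.0 kb downstream (chr9:98985969-98987310) covers the promoter and first exon of Faim, which encodes an inhibitor of Fas-induced cell death. It was the strongest peak of the Foxl2 window in each library, with a −log10 q of 22.0 and 18.5 under vehicle and 25.5 and 21.5 under activin. Density was 3.51 and 2.61 under vehicle and 3.31 and 3.37 under activin, so the groups overlapped on both measures. The log2 difference was -0.13 ± 0.12 (SE; limma adjusted p = 0.741). The Faim promoter had a higher density than the Foxl2 promoter in each of the 4 libraries.

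The intergenic region 17.7 kb downstream (chr9:98972973-98973651, nearest gene Faim) was weak in 3 libraries. Its −log10 q was 2.42 and 2.64 under vehicle, and 6.50 and 2.95 under activin. Density was 1.48 and 1.36 against 1.80 and 1.44, with overlap. The peaks of the 4 libraries shared only 46.8% of their joint extent, under the 50% asked of a shared region, so it was not in the main test. In a fit of every region called in all 4 libraries it differed by 0.01 ± 0.21 (log2, SE; limma adjusted p = 0.991).

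Upstream of Foxl2 a single region was called in all 4 libraries, 32.9 kb away (chr9:98921806-98923593, intergenic, annotated to Gm28266). It was broad and low, with 6 peaks in the 4 libraries. The highest −log10 q was 1.86 and 2.32 under vehicle and 2.78 and 2.72 under activin, and density over its peaks was 1.31 and 0.990 against 1.15 and 1.3. The q-values did not overlap between groups while the densities did.

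At Gata2 both starts were open in all 4 libraries. The region at the upstream start (chr6:88193395-88194035) had a −log10 q of 4.96 and 2.98 under vehicle and 7.38 and 5.33 under activin. Its density was 3.16 and 2.45 under vehicle and 3.78 and 3.11 under activin. The q-values did not overlap between the groups, and the densities did, since activin library 2 fell just under vehicle library 1. The log2 difference was 0.02 ± 0.12 (SE; limma adjusted p = 0.970).

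The region at the downstream start (chr6:88198055-88198928), annotated as a promoter of Gata2, had a −log10 q of 3.42 and 4.01 under vehicle and 8.31 and 7.57 under activin. Density was 3.18 and 2.82 under vehicle and 3.65 and 3.72 under activin. Both measures were higher in both activin libraries, and the mean densities were 3.0 ± 0.260 and 3.69 ± 0.0451 (SD, n = 2 libraries, exact permutation p = 0.333). The peak itself was 491 and 681 bp long under vehicle and 874 and 774 bp under activin. After centring, the log2 difference was 0.02 ± 0.10 (SE; limma adjusted p = 0.959). Without division by these lengths it was 0.38 ± 0.15 (SE; limma adjusted p = 0.362). Mean density over the libraries was 3.13 at the upstream start and 3.34 at the downstream one, above 58.4% and 63.6% of the shared regions. The downstream start had the higher density in vehicle libraries 1 and 2 and activin library 2, and the lower one in activin library 1.

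The distal regions upstream of Gata2 were 3.99, 24.1 and 69.9 kb away, all intergenic. The nearest of them (chr6:88189561-88190239) had a −log10 q of 15.1 and 7.30 under vehicle and 14.5 and 11.7 under activin, higher than at either start in each library. Its density was 3.61 and 3.18 under vehicle and 3.67 and 3.68 under activin, and although the groups did not overlap, vehicle library 1 lay close under the activin libraries. The log2 difference was -0.16 ± 0.10 (SE; limma adjusted p = 0.625).

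The region 24.1 kb upstream (chr6:88169432-88170067) had almost the same density in all libraries, 1.90 and 1.85 under vehicle and 1.88 and 1.93 under activin. Its −log10 q was 6.39 and 3.17 against 7.01 and 5.18, with overlap. Against a genome whose median shared region was denser under activin, the centred log2 difference was -0.25 ± 0.14 (SE; limma adjusted p = 0.601).

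The region 69.9 kb upstream (chr6:88123659-88124341), nearest to the microRNA gene Mir6376, had a −log10 q of 2.61 and 3.78 under vehicle and 9.18 and 6.26 under activin. Fold enrichment was 2.57 and 2.64 against 3.54 and 3.34. Density was 1.57 and 1.74 against 2.03 and 2.05. None of these measures overlapped between the groups. The centred log2 difference was 0.03 ± 0.16 (SE; limma adjusted p = 0.975), and it turned to -0.14 without vehicle library 1.

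The regions of the Gata2 window with the highest mean density lay 32.9 and 38.0 kb downstream of the upstream start, beyond Dnajb8, the gene of a DNAJ chaperone, and before Eefsec, the gene of the selenocysteine elongation factor. The authors' annotation calls them intergenic and nearest to 1700031F10Rik. The region at 38.0 kb (chr6:88231350-88232445) had a −log10 q of 19.2 and 15.9 under vehicle and 28.9 and 26.9 under activin. Density was 5.02 and 3.67 under vehicle and 5.48 and 5.39 under activin. Both activin libraries were above both vehicle libraries on each measure, although the density of vehicle library 1 was closer to those of the activin libraries than to that of vehicle library 2. The mean densities were 4.34 ± 0.954 and 5.43 ± 0.0581 (SD, n = 2 libraries, exact permutation p = 0.333), and the centred log2 difference was 0.07 ± 0.11 (SE; limma adjusted p = 0.877).

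The region at 32.9 kb (chr6:88226403-88227144) had a −log10 q of 12.5 and 8.53 under vehicle and 18.1 and 10.9 under activin. Density was 4.92 and 3.64 under vehicle and 4.99 and 3.63 under activin, so libraries of the same treatment differed more than the treatments did. Same-numbered libraries were close here, and with the replicate number as a block the limma adjusted p was 0.457. The log2 difference was -0.27 ± 0.14 (SE; limma adjusted p = 0.576), and it ran from -0.46 without activin library 1 to -0.07 without activin library 2. Mean density was above 80.03% of shared regions here and above 86.7% at 38.0 kb, higher than at either Gata2 start.

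A further intergenic region 47.8 kb downstream (chr6:88241184-88242138) was called in all libraries over stretches that shared 19.1% of their joint extent. Its −log10 q was 1.93 and 2.78 under vehicle and 4.84 and 4.41 under activin. Density was 1.44 and 2.61 against 2.09 and 1.86. The q-values stood apart between the groups, and the densities overlapped because the vehicle libraries lay at both ends of the range.

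**Figure D3:**
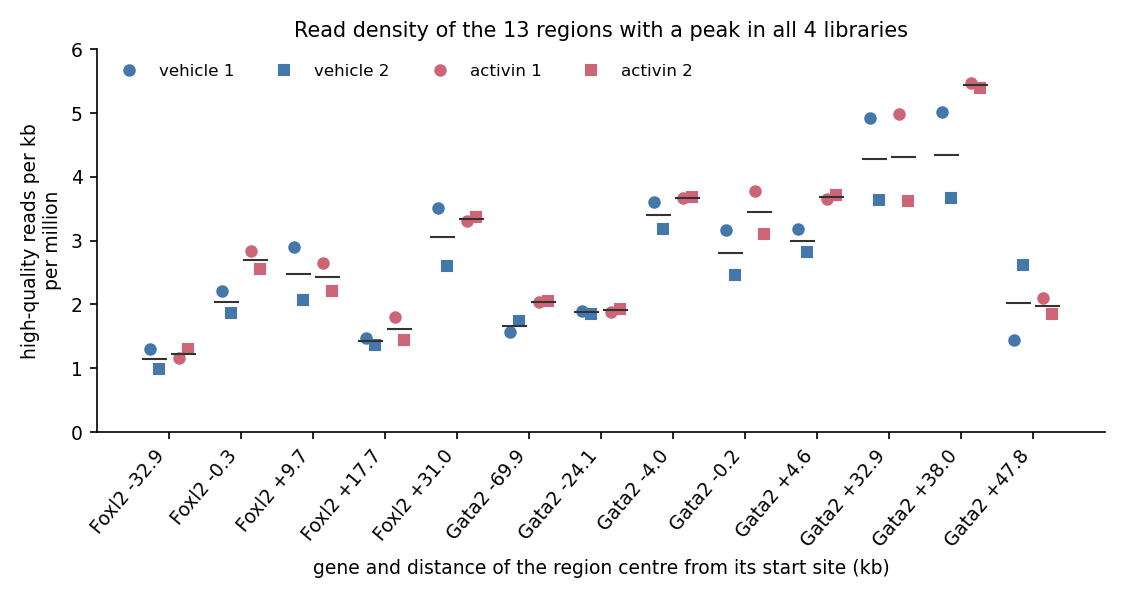
Read density of the 13 regions with a peak in all 4 libraries, in high-quality reads per kb of peak per 1000000 high-quality reads; each point is 1 library, circles are the libraries numbered 1, squares those numbered 2, and each bar is the mean of the 2 libraries of a treatment. The regions 32.9 and 38.0 kb downstream of Gata2 reach 3.63 to 5.48, above the Foxl2 promoter at 1.87 to 2.84 in every library.

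Of the 13 regions called in all 4 libraries, 8 had both activin −log10 q values above both vehicle values, 3 of 5 at Foxl2 and 5 of 8 at Gata2, and 0 had both below. Over all 29896 regions called in all 4 libraries, the shares were 56.8% higher and 5.44% lower. Fold enrichment was higher in both activin libraries in 6 of the 13 and lower in 0, against 49.3% and 6.03% of those regions. Density was higher in both in 5 of the 10 shared regions of the windows, 1 of 3 at Foxl2 and 4 of 7 at Gata2, and lower in 0, against the 62.4% and 3.56% of all shared regions. The called interval was longer in both activin libraries in 4 of these 10, and shorter in both in 1, the Foxl2 promoter, against 38.1% and 7.03%. The counts at the 2 loci were thus close to the background of the series on each measure. The whole-genome differences in start-site enrichment and number of strong peaks run the same way, and their part in these values was not tested.

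The test over all shared regions called 0 of 13871 higher and 0 lower at an adjusted p of 0.05 (limma; 0.0% in each direction). At an unadjusted p under 0.05, 502 were higher and 820 lower, which is 3.62% and 5.91%, and none of the 10 regions of the Foxl2 and Gata2 windows was among them. Of the 10, 5 were above 0 and 5 below, with a median of -0.05. The median of -0.00 over all shared regions is set near 0 by the centring, which also removes any change common to all of them. Scaled to all high-quality reads instead, 9 of the 10 were above 0, and 1 below. On that scale 553 shared regions (3.99%) were called higher and 52 (0.375%) lower, and none of the 10 was among them. The largest difference of the 10 on that scale was at the Foxl2 promoter, 0.41 (log2; limma adjusted p = 0.111).

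**Figure D4:**
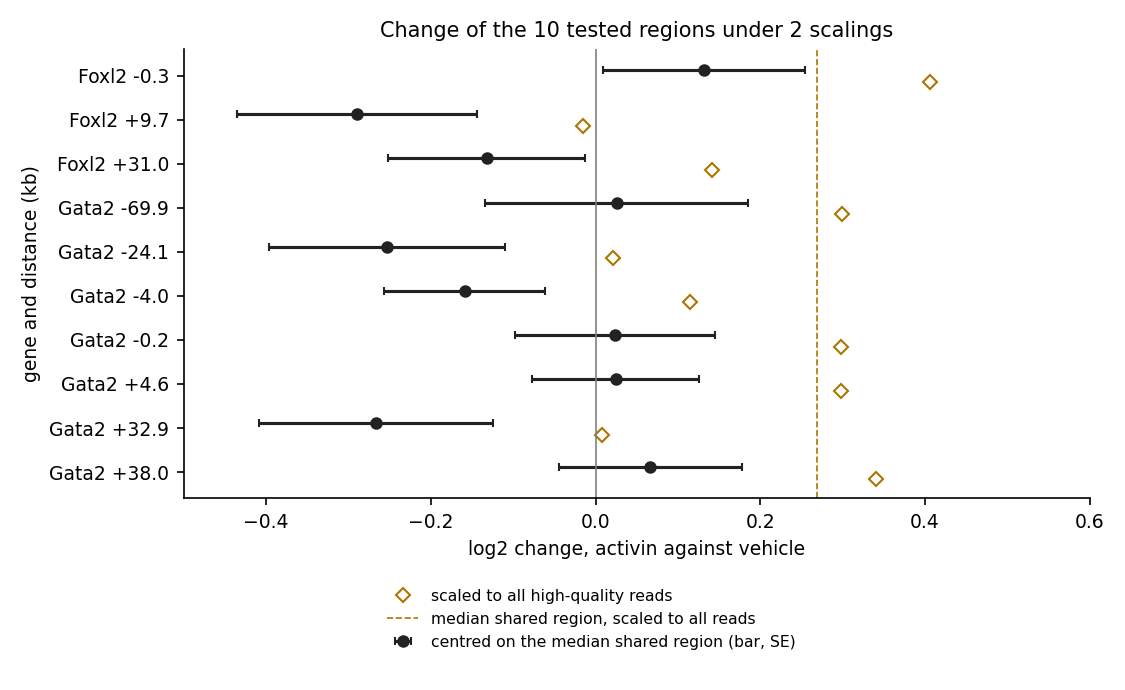
Log2 difference of activin against vehicle in the 10 tested regions; filled points with bars are the values centred on the median shared region with their SE, open diamonds are the values scaled to all high-quality reads, and the dashed line is the median of all 13871 shared regions on the latter scale. Centred values run from -0.29 to 0.13, and the diamonds lie between -0.02 and 0.41, around a median shift of 0.27.

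The number of called peaks in the windows was compared next. The Foxl2 window held 12 and 19 peaks under vehicle and 9 and 11 under activin (exact permutation p = 0.333, n = 2 libraries). The groups did not overlap, and 12 of the 29 merged Foxl2 regions were called in vehicle library 2 alone. In the whole series 102994 of 255101 merged regions were called in that library alone, a similar share. That library had the longest list, with 178358 peaks against 70692 to 85112. When each list was reduced to its 70692 strongest peaks, the Foxl2 counts were 10 and 9 under vehicle and 8 and 11 under activin. The Gata2 window held 13 and 17 peaks under vehicle and 13 and 12 under activin (exact permutation p = 0.667, n = 2 libraries).

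Strong peaks differed the other way. At Gata2, 4 and 3 peaks reached a −log10 q of 5 under vehicle, and 8 and 7 did under activin (exact permutation p = 0.333, n = 2 libraries). At Foxl2 the counts were 3 and 2 against 4 and 3 (exact permutation p = 0.667, n = 2 libraries). Both Gata2 starts and the region 69.9 kb upstream reached this level in both activin libraries and in no vehicle library. The upstream start missed it narrowly in vehicle library 1, at 4.96. The region 24.1 kb upstream reached it in all but vehicle library 2. The whole lists also held more strong peaks under activin, 19819 and 15807 against 12377 and 12760. How many regions of the series crossed this level in the same way was not counted. When each list was reduced to its 12377 strongest peaks, an alternative chosen after the data were seen, the Gata2 counts were 4 and 3 under vehicle and 3 and 4 under activin. The Foxl2 counts were then 3 and 2 in either group.

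Regions called in all libraries made up a larger share at Gata2 than at Foxl2. At Gata2, 8 of 24 merged regions (33.3%) were called in all 4 libraries, and at Foxl2 5 of 29 (17.2%), beside 11.7% of all merged regions of the series. A strong peak in any library was present in 33.3% of the Gata2 regions and 13.8% of the Foxl2 regions, beside 8.32% of all. These shares are descriptions and the difference between the loci was not tested, since regions of 1 window are not replicates. In 1 library only, there were 20 Foxl2 regions (69.0%) and 11 Gata2 regions (45.8%), beside 67.4% of all merged regions. Vehicle library 2 held 12 and 8 of them. All of these single-library peaks were weak, with a −log10 q of at most 2.18.

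Of the 53 merged regions of the windows, 3 were called in both activin libraries and no vehicle library. Only 1 was called in both vehicle libraries and no activin library. At Foxl2, 2 were called only under activin. The intergenic one 7.79 kb downstream (chr9:98962789-98963996), annotated to Foxl2, had a −log10 q of 1.91 and 1.97 and a density of 1.41 and 1.45. The other, 27.7 kb upstream (chr9:98927786-98928066), had a −log10 q of 2.11 and 1.74. At Gata2 1 region was called only under activin, 25.5 kb downstream (chr6:88219111-88219763) near Dnajb8, with a −log10 q of 1.97 and 2.47. The single vehicle-only region, 90.5 kb upstream of Foxl2 (chr9:98864756-98865526) in an exon of 2410012M07Rik, had a −log10 q of 1.69 and 1.28. All 4 were weak calls, and reads in the libraries without a call were not analysed here. In the whole series, 3454 of 255101 merged regions were called in the activin pair alone and 12397 in the vehicle pair alone. The balance in the windows thus ran the other way from that of the series, on very few regions, and this was not tested.

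Other regions were called in part of the libraries. A peak 35.5 kb upstream of Gata2 (chr6:88158275-88158496) had a −log10 q of 5.92 in activin library 1 and 1.51 in vehicle library 1, and was not called in libraries 2 of either treatment. The region 24.3 kb downstream of Foxl2 (chr9:98979690-98980105) was called with a −log10 q of 3.15 in vehicle library 2, 4.06 in activin library 1 and 2.77 in activin library 2, and not in vehicle library 1. The region at the end of Gata2 (chr6:88207103-88208407), 13.9 kb from the upstream start, had a −log10 q of 1.5 in vehicle library 1, 2.38 in activin library 1 and 1.40 in activin library 2. The region 22.4 kb downstream of Gata2 (chr6:88215929-88216637) had 1.12 in vehicle library 2, 3.07 in activin library 1 and 2.52 in activin library 2. None of these separated the treatments by presence of a peak.

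Related genes were read from fixed lists. A gene without a start in the RefSeq table was looked up by the authors' nearest-gene label alone. Of 44 forkhead genes, 19 had a promoter peak in all 4 libraries, Foxl2 among them, and for 14 none was found in any library. For comparison, 53.1% of 17491 protein-coding genes had one in all 4 libraries and 30.0% in none. All of those genes had a start in the RefSeq table, but only 28 of the 44 forkhead genes did. The shares are therefore not directly comparable. In the 15 forkhead promoters that were shared regions the log2 differences ran from -0.16 at Foxk1 to 0.32 at Foxp1, with a median of 0.05, and 0 were called by limma. Foxl2, at 0.13, was itself among these 15, so the range is no separate comparison for it. Of 8 GATA factors and their cofactors, Gata2, Gata4, Gata5, Zfpm1 and Zfpm2 had a promoter peak in all 4 libraries. Only 5 of the 8 had a start in the RefSeq table, and Gata4 and Zfpm2 were looked up by label alone. Gata3 had a region called in all 4 libraries near its start, but the peak was centred within 1 kb of that start in 1 library only. For Gata1, a blood factor, and Gata6, which was looked up by label alone, none was found. Zfpm1, a cofactor of GATA proteins, was the strongest, with a −log10 q of 12.3 to 29.1 over the libraries, against 3.42 to 8.31 at the downstream Gata2 start.

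Of 32 gonadotrope transcription factors and activin effectors, 23 had a promoter peak in all 4 libraries, beside 53.1% of all protein-coding genes with a RefSeq start. Only 20 of the 32 had such a start, so these shares are not directly comparable either. In the 13 that were shared regions, 6 differences were above 0, 7 were below, and 0 were called (median -0.00, log2). Of 9 genes linked to FOXL2 or GATA2 in the gonadotrope, Lhb, Cga, Gnrhr and Bmp2 had a promoter peak in all 4 libraries. Only 7 of the 9 had a RefSeq start, and Bmp2 was looked up by label alone. Cga, the gene of the common glycoprotein hormone α subunit, had the largest difference of the 3 tested, 0.24 ± 0.10 (log2, SE; limma adjusted p = 0.509). Fshb, the hormone gene that FOXL2 acts on, and Tshb, the thyrotropin β subunit gene, had a promoter peak in 0 libraries. None was found for Fst, the follistatin gene, which was looked up by label alone.

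The genes most like each start were sought among 33 promoters of these lists, by the Euclidean distance of their 4 centred log2 densities, so that level and pattern over the 4 libraries both count. Nearest to the Foxl2 promoter were Foxn3 (distance 0.158), Foxj3 (0.249) and Neurod1 (0.323). Nearest to the upstream Gata2 start were Msx1 (0.237), Jun (0.270) and Foxj1 (0.324), and nearest to the downstream start were Foxj1 (0.0288), Cga (0.237) and Foxo3 (0.284). These distances rest on 4 libraries that all genes share.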

How the data were processed

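ATAC-seq libraries of LbT2b cells, 2 with vehicle and 2 with activin A, were analysed from 3 files each, grouped by sample title. The members and gene lists were chosen with earlier results of these data known. The submitters' processing notes name Bowtie2, MACS2 and HOMER, without versions or roles, and GRCm38 and mm10. In the deposited broad peak lists, called per library, each peak carries a score, a fold enrichment (a ratio over the caller's background), a −log10 p-value and a −log10 q-value. These are the authors' values, used only to describe, rank and filter peaks. They depend on each library's depth and background. Peaks were annotated by HOMER's annotatePeaks.pl and quality reports were made by ataqv 1.3.1, per the file headers. These reports give the high-quality autosomal reads over each peak, without duplicates.

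Peaks overlapping by at least 1 bp were merged into regions. Shared regions were autosomal, with exactly 1 peak per library and a common part of at least 50% of their union. The log2 of (reads + 1) per kb, over the peak as called in each library, centred on each library's median, was tested with limma 3.58.1 (lmFit and eBayes with trend, R 4.3.3) and Benjamini-Hochberg adjustment at 0.05 over all 13871 shared regions. Such differences understate the change of regions with few reads. Intervals differ between libraries, so no count model was used. The fit was also run on simulated data with planted changes of 1 (log2). Those changes were larger than any difference of the members, so the run does not show how well differences of that size would be found. Single values were compared by 2-sided exact permutation over libraries, where 2 against 2 cannot go below 0.333. Depth was 172146474 to 224226184 high-quality reads, so a density of 1 stands for 172 to 224 reads per kb of peak. Named regions were all those called in every library, those with a −log10 q of 5 or more in any library, and those called in both libraries of 1 treatment only. Outside this rule, the regions 24.3 kb downstream of Foxl2 and 13.9 and 22.4 kb downstream of Gata2 were also described. So was a weak peak 86.0 kb upstream of Foxl2. Without a genome, sequences of distal regions were not analysed here. Reads over a region in a library without a peak there were not analysed here either.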

Additional observations from a re-analysis of the deposited data

How the results depend on the processing

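None of the 10 tested regions of the Foxl2 and Gata2 windows was called under any alternative in which it was fitted. The number of called regions in the series was 0 in the main test and 0 with a mean of at least 50 reads, with a common part of 80%, with every region called in all 4 libraries and with peaks of a −log10 q of at least 5. It was 4 with the replicate number as a block, 605 when scaled to all high-quality reads, 39 without division by length, 1 with a pseudocount of 10 reads, and 0 to 9 when 1 library was left out, the 9 without activin library 2. Same-numbered libraries did not deviate together (r = -0.03 over 13871 regions), and the main test did not pair them. That r cannot exclude a culture or day shared by number, which the labels do not give. The fit with the replicate block called no member.

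Over the 10 regions 91 of 105 settings kept the direction of the log2 difference and 14 reversed it; the region 9.74 kb downstream of Foxl2 alone kept it throughout, at -0.29 in the main test, -0.0155 when scaled to all high-quality reads, -0.135 without division by length, and -0.130 (without vehicle 1) to -0.448 (without vehicle 2) with 1 library left out. Scaling to all high-quality reads reversed it at the Faim promoter (0.142) and at the Gata2 regions 24.1 kb upstream (0.0206), 3.99 kb upstream (0.115) and 32.9 kb downstream (0.00734). Leaving out the division by length reversed it at the Foxl2 promoter (-0.0544), the Faim promoter (0.159), the upstream Gata2 start (-0.00702) and 38.0 kb downstream of Gata2 (-0.102). Leaving out 1 library in turn gave -0.136 (without vehicle 1) to 0.188 at 69.9 kb upstream of Gata2, and -0.0777 (without activin 1) to 0.125 at its upstream start. The range was -0.0259 (without activin 2) to 0.0745 at its downstream start, where it was 0.382 without division by length, and -0.0721 (without vehicle 2) to 0.205 at 38.0 kb downstream. It kept its sign but moved between -0.00518 (without vehicle 1) and -0.259 (without vehicle 2) at the Faim promoter and between -0.0743 (without activin 2) and -0.458 (without activin 1) at 32.9 kb downstream of Gata2. Scaling to all high-quality reads shifts the log2 difference of every tested region by the same amount, so the reversals under it follow from that shift. The cause of the other reversals was not tested.

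The activin minus vehicle difference in peaks was -5.5 at Foxl2, and became 1 at a −log10 q of at least 2 or 5, and 0 with lists of equal number. At Gata2 it was -2.5, and became 3.5 at a −log10 q of at least 2, 4 at 5 or more, 2 with lists of equal number, 0 with equal numbers of strong peaks and 0 within 50 kb. Of 65 settings for densities of the 13 regions called in all 4 libraries, 55 kept the direction of the activin minus vehicle difference. With 1 library left out it ran from -0.0779 (without vehicle 2) to 0.237 at 32.9 kb upstream of Foxl2, from -0.468 to 0.368 (without vehicle 1) at 9.74 kb downstream and from -0.170 (without vehicle 2) to 0.732 at 31.0 kb downstream. At Gata2 it ran from -0.652 (without activin 1) to 0.710 at 32.9 kb downstream and from -0.638 to 0.532 (without vehicle 2) at 47.8 kb downstream. Counted per 1000000 reads in the library's own peaks it turned to 0.176 at 9.74 kb downstream of Foxl2 and 2.58 at 47.8 kb downstream of Gata2. With 2 libraries a treatment, exact tests of single values cannot pass 0.05.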

Other observations

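A peak of activin library 2 lay 86.0 kb upstream of Foxl2 (chr9:98869273-98869843, intergenic, annotated to Gm5920). It had a −log10 q of 1.71 in the authors' list, while the quality report gave 11 high-quality reads over its 571 bp, a density of 0.108. The peaks of the 13 regions called in all 4 libraries had densities of 0.990 to 5.48.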
